A study of Mus musculus with 64 samples.

Results

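The genes described here are 10 that act on the extracellular matrix of the liver: the matrix metalloproteinase genes Mmp2, Mmp12, Mmp13 and Mmp14, the tissue inhibitor genes Timp1, Timp2 and Timp3, and the lysyl oxidase genes Lox, Loxl1 and Loxl2. They were taken by symbol from a table of 53008 gene names, and all 10 were in it. RNA was measured in the liver of wild-type (WT) mice and of humanized HuMgat2 mice, which express human MOGAT2, a monoacylglycerol acyltransferase that joins a fatty acid to monoacylglycerol. Mice of both genotypes ate chow or a high-fat diet (HFD) for 16 weeks, and the liver was sampled at the end. The 4 groups, WT on chow, WT on HFD, HuMgat2 on chow and HuMgat2 on HFD, held 4 libraries each, and libraries are named below by the number 1 to 16 in their labels. Strain, sex, age, the promoter that drives human MOGAT2 and the hour of collection are not given in the sources used here. The labels do not say whether each library is a separate animal, so the tests measure the spread between libraries.

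Matrix metalloproteinases are zinc-dependent enzymes that are made as inactive proenzymes and cut collagen, elastin and other matrix proteins once activated. The tissue inhibitors of metalloproteinases, TIMPs, bind the active site and block it. Lysyl oxidase and its relatives are copper-dependent enzymes that oxidise lysines of collagen and elastin, from which the cross-links of a stiff fiber form. In the liver these genes are mainly known from hepatic stellate cells, other fibroblasts and macrophages, and their balance is studied in the build-up and the removal of scar matrix.

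Of the 10 genes, 8 had enough counts to be tested and Mmp13 and Timp1 did not, so both are given below as counts. Levels are in CPM, counts scaled to a common library size, after TMM scaling, a correction for library composition. A gene is said to have risen or fallen where edgeR's quasi-likelihood test gave an adjusted p below 0.05 over the 17318 genes tested. Changes are log2 differences with a standard error (SE) worked back from the change and the statistic of that test. This SE is approximate, above all at low counts. Libraries held 12.4 to 25.8 M counts. WT HFD library 4 was the shallowest and stood apart: albumin (Alb) took 0.8502% of its counts, against 3.259% to 6.018% in the other libraries. Results that turn on that library are given with and without it. The counts of mouse Mogat2 per library were 0 to 2 on chow and 2 to 12 on HFD in WT. In HuMgat2 they were 0 to 1 on chow and 0 to 2 on HFD, so at these levels the gene does not check the genotype labels. The level of human MOGAT2 was not analysed here.

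The upstream sequences of Mmp12 and Mmp13 are shown because these genes had the largest HFD to chow ratios among the proteases in HuMgat2 mice, and because both hold a match to the AP-1 motif TGANTCA, which binds Fos and Jun family factors. The sequences are from RefSeq on GRCm38.p6, a different build from that of the counts (GRCm39), and end at the base before the annotated start of transcription. Capitals mark the motif matches. Mmp12, chr9:7347124-7347373, plus strand, and Mmp13, chr9:7272264-7272513, plus strand, read 5′ to 3′ as follows.
Mmp12: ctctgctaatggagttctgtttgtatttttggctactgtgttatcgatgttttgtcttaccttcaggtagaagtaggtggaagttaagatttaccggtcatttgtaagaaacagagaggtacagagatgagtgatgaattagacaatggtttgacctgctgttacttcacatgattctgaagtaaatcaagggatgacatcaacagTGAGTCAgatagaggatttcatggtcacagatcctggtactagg
Mmp13: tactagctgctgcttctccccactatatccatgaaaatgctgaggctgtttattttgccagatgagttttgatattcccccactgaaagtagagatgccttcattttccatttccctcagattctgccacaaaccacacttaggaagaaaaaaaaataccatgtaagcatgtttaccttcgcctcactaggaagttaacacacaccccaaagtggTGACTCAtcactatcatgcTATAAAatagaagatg
In Mmp12 the match TGAGTCA lay at bases -44 to -38 from the start, and in Mmp13 the match TGACTCA lay at bases -35 to -29, followed by a TATAAA at -16 to -11. A second Mmp12 start in the table, at 7344397, had no match in its window, and the Mmp12 gene of the counts starts at that same coordinate. Entries were found for 6 of the 10 genes, with 7 windows of 250 bases. On either strand, TGANTCA occurred in 6.7% of 32851 such windows of all genes, TATAAA in 12.4% and the GC box GGGCGG in 32.7%. The windows of Mmp14, Timp1, Timp2 and Timp3 held no TGANTCA and held 2, 1, 1 and 1 GC boxes. Timp1 had a larger HFD to chow ratio in HuMgat2 (24.6) than either protease shown. The 2 sequences were chosen partly for holding the match, and a link of the motif to diet was not tested. A match describes letters in the window and was not tested for binding.

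With HFD, 2 of the 8 tested genes rose in WT mice, Mmp2 and Mmp12, against a background of 8.37% of all tested genes called higher, and 0 fell, against 6.74% called lower. In HuMgat2 mice 5 rose, Mmp2, Mmp12, Timp2, Lox and Loxl2, against 7.56%, and 0 fell, against 6.40%. The median log2 difference of the 8 genes was 0.57 in WT and 1.03 in HuMgat2, beside 0.03 and -0.01 over all tested genes. The HFD and chow libraries did not overlap for 1 of the 8 in WT, against 18.2% of all tested genes, and for 5 of the 8 in HuMgat2, against 21.0%. Lox passed the filter on low counts only through HuMgat2 HFD, where it is high, so it adds no support to these HuMgat2 counts. On HFD, 3 genes were higher in HuMgat2 than in WT, Mmp2, Mmp12 and Timp2, and 0 were lower, where 14.8% of all tested genes were called in either direction. For those 3 the libraries of the genotypes were also separate, which held for 21.2% over all tested genes. On chow 1 gene was called between the genotypes, Loxl2, lower in HuMgat2, against 0.508% of all tested genes. Loxl2 and Mmp12 did not overlap there, against 6.62%. The test of a diet effect that differs between the genotypes called 1 gene, Loxl2, against 4.87% of all tested genes. The diet and genotype comparisons share groups, so they are not independent of each other.

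**Figure D1:**
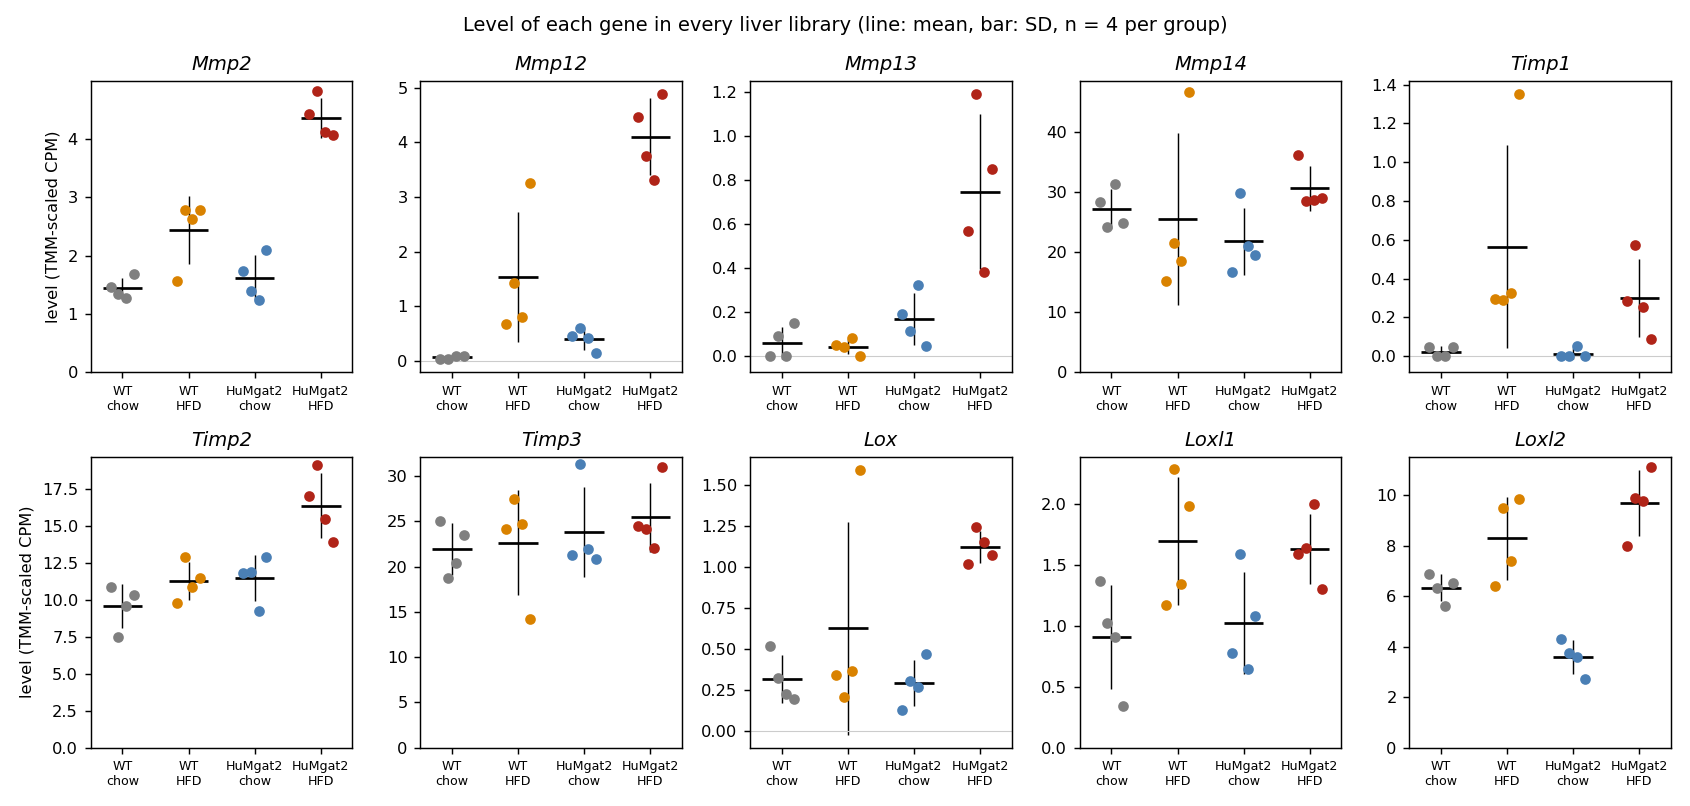
Level of each of the 10 genes in TMM-scaled CPM (y axis) in the 16 libraries, grouped by genotype and diet (x axis), with points in the order of library number, the mean as a line and the SD as a bar (n = 4 per group). All 4 HuMgat2 HFD libraries lie above the other 12 in Mmp2, Mmp12, Mmp13 and Timp2, and WT HFD library 4 is the highest of its group in Mmp12, Mmp14, Timp1, Lox and Loxl2.

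**Figure D2:**
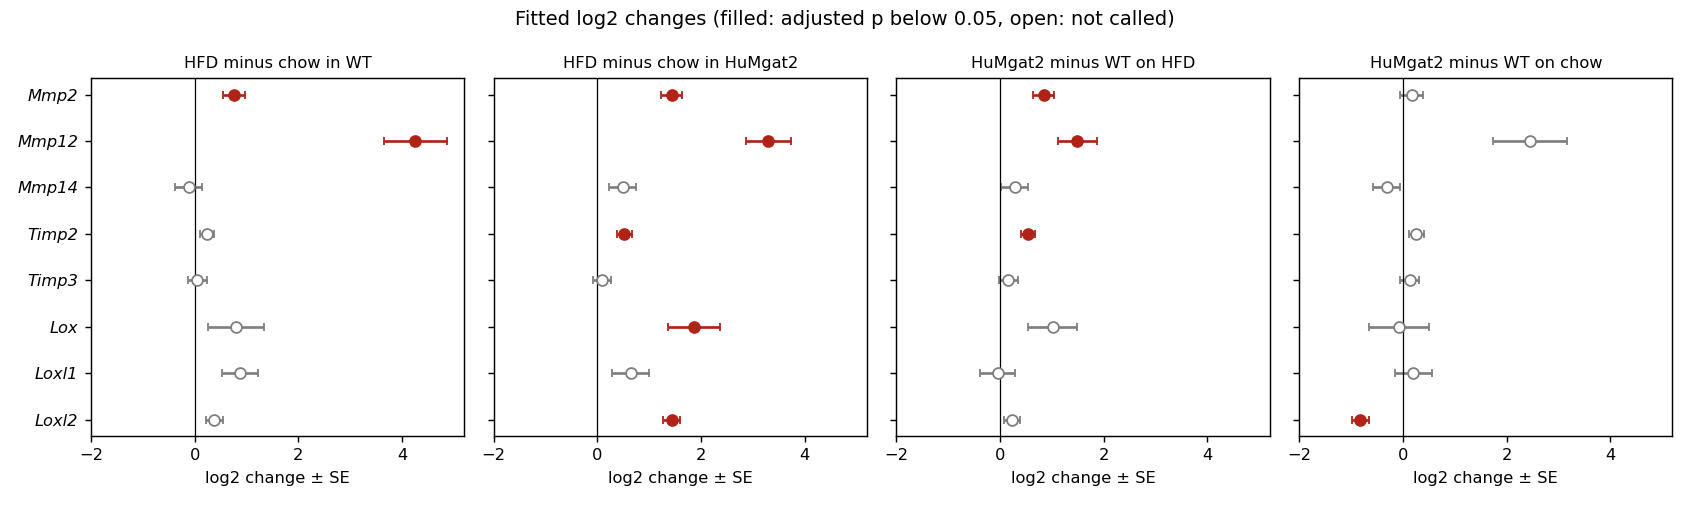
Fitted log2 differences with SE (x axis) of the 8 tested genes in the 4 comparisons, with filled points where the adjusted p was below 0.05. Mmp12 has the largest differences with diet, 4.26 in WT and 3.30 in HuMgat2, and Loxl2 is the 1 gene with a called difference below 0.

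Mmp12 (ENSMUSG00000049723, GRCm39 chromosome 9, 7344397 to 7369499), macrophage elastase, had the largest rise with HFD of the 8 tested genes in both genotypes. In WT its level was 0.0472, 0.0462, 0.0906 and 0.0987 CPM in chow libraries 5 to 8 and 0.683, 1.42, 0.809 and 3.25 CPM in HFD libraries 1 to 4. In HuMgat2 it was 0.451, 0.607, 0.429 and 0.140 CPM in chow libraries 13 to 16 and 4.47, 3.76, 3.31 and 4.88 CPM in HFD libraries 9 to 12. Every HFD library lay above every chow library of its genotype, and every HuMgat2 HFD library lay above every WT HFD library, the nearest being WT library 4. The rise was 19.1-fold in WT (log2 4.26 ± 0.61 SE, adjusted p = 0.000356) and 9.86-fold in HuMgat2 (log2 3.30 ± 0.43 SE, adjusted p = 0.000101). When WT HFD library 4 was left out, the WT change was log2 3.69. The WT chow level rests on 6 counts in 4 libraries, so the fold against it is imprecise. The difference between the 2 diet effects was not called (log2 -0.96 ± 0.80 SE, adjusted p = 0.572). Between the genotypes on HFD, Mmp12 was higher in HuMgat2 by 2.81-fold (log2 1.49 ± 0.38 SE, adjusted p = 0.0149), and without WT library 4 the difference was log2 2.07. On chow the HuMgat2 libraries again lay above the WT ones, at 34 against 6 counts, but the difference was not called (log2 2.45 ± 0.71 SE, adjusted p = 0.176). It was called without WT HFD library 4 (adjusted p = 0.0341) and by DESeq2 (adjusted p = 0.0489). In these fits 112 and 133 of all genes were called higher in HuMgat2 on chow, against 46 in the main fit.

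Mmp2 (ENSMUSG00000031740, chromosome 8, 93553919 to 93580048), gelatinase A, cuts denatured collagen and basement membrane. In WT it stood at 1.46, 1.34, 1.27 and 1.68 CPM in chow libraries 5 to 8 and at 1.56, 2.79, 2.63 and 2.78 CPM in HFD libraries 1 to 4. In HuMgat2 it stood at 1.74, 1.40, 1.23 and 2.10 CPM in chow libraries 13 to 16 and at 4.43, 4.82, 4.12 and 4.07 CPM in HFD libraries 9 to 12. WT HFD library 1 lay within the WT chow range, while the 4 HuMgat2 HFD libraries lay above all others. Mmp2 rose 1.69-fold with HFD in WT (log2 0.76 ± 0.21 SE, adjusted p = 0.0228) and 2.69-fold in HuMgat2 (log2 1.43 ± 0.20 SE, adjusted p = 0.000194). The call in WT was lost with only the 2 groups compared (adjusted p = 0.0751) and on leaving out any 1 of WT chow libraries 5, 6 or 7 or WT HFD libraries 2 or 3 (adjusted p 0.0535 to 0.0672). Between the genotypes on HFD it was higher in HuMgat2 by 1.79-fold (log2 0.84 ± 0.20 SE, adjusted p = 0.00933). The difference between the diet effects was not called (log2 0.67 ± 0.29 SE, adjusted p = 0.229).

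Mmp13 (ENSMUSG00000050578, chromosome 9, 7272514 to 7283331), the main interstitial collagenase of rodents, was near 0 outside the HuMgat2 HFD group. Its counts were 0, 2, 0 and 3 in WT chow libraries 5 to 8 and 1, 1, 2 and 0 in WT HFD libraries 1 to 4. In HuMgat2 they were 3, 3, 6 and 1 in chow libraries 13 to 16 and 14, 27, 9 and 19 in HFD libraries 9 to 12. The HuMgat2 HFD libraries lay above all the others, and the WT libraries of both diets overlapped. For Mmp13 and Timp1, ratios of summed counts, scaled by library size, are given with exact 95% intervals that cover counting error only, and with two-sided exact permutation tests over libraries, whose smallest possible p is 0.0286 and of which 8 were run without adjustment. With HFD the summed Mmp13 counts of HuMgat2 were 69 against 13, a ratio of 4.67 (2.56 to 9.21, exact permutation p = 0.0286). On HFD they were 69 in HuMgat2 against 4 in WT, a ratio of 15.2 (5.66 to 57.2, exact permutation p = 0.0286). In WT the 4 counts on HFD and 5 on chow gave a ratio of 0.833 (0.165 to 3.87, exact permutation p = 0.657). It turned to 1.59 without WT chow library 8 and to 1.04 without library 6, so the counts give no direction in WT. In an edgeR fit without the filter, over 33954 genes, Mmp13 was called in HuMgat2 with HFD (log2 2.18 ± 0.57 SE, adjusted p = 0.0163) and between the genotypes on HFD (log2 3.83 ± 0.69 SE, adjusted p = 0.000558).

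Mmp14 (ENSMUSG00000000957, chromosome 14, 54669069 to 54682821) encodes MT1-MMP, a membrane-bound collagenase that, with TIMP2, activates pro-MMP2. It was the most abundant of the 4 protease genes per length. Its level was 28.3, 24.1, 31.3 and 24.8 CPM in WT chow libraries 5 to 8 and 15.2, 21.5, 18.5 and 46.7 CPM in WT HFD libraries 1 to 4. It was 16.7, 29.8, 21.0 and 19.5 CPM in HuMgat2 chow libraries 13 to 16 and 36.2, 28.5, 28.7 and 29.0 CPM in HuMgat2 HFD libraries 9 to 12. WT HFD library 4 was the highest of all 16, while the other 3 of its group lay below all WT chow libraries. In edgeR's test with all libraries Mmp14 was not called in any comparison (log2 -0.11 ± 0.26 SE with HFD in WT, adjusted p = 0.835, and 0.49 ± 0.26 SE in HuMgat2, adjusted p = 0.249). Without WT HFD library 4 it was called lower with HFD in WT (log2 -0.56, adjusted p = 0.0346) and higher with HFD in HuMgat2 (log2 0.49, adjusted p = 0.0354). It was then also called higher in HuMgat2 than in WT on HFD (log2 0.73, adjusted p = 0.00759), and the diet effects differed (log2 1.04, adjusted p = 0.0104). Voom with quality weights, a fit that keeps all 16 libraries and weights each by its spread, also called these 4 differences (log2 -0.52, 0.50, 0.64 and 1.02 in the same order, adjusted p = 0.0242, 0.0452, 0.00520 and 0.0104). The Mmp14 calls thus depend on the weight given to 1 library.

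Per length, Mmp14 had the highest and Mmp2 the next highest mean of the 4 protease genes in every group, while Mmp12 and Mmp13 changed places between groups. Mmp14 made up 90.7% ± 2.15 (SD, n = 4) of their summed level per kilobase of exon in WT on chow and 80.6% ± 4.14 in WT on HFD. It made up 85.3% ± 3.98 in HuMgat2 on chow and 70.5% ± 3.34 in HuMgat2 on HFD. Mmp2 took most of the rest, with 8.61% and 15.3% in WT on chow and HFD and 11.8% and 17.9% in HuMgat2. Mmp12 went from 0.195% to 3.75% in WT and from 1.32% to 7.82% in HuMgat2, and Mmp13 was at most 3.87% in any group mean.

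**Figure D3:**
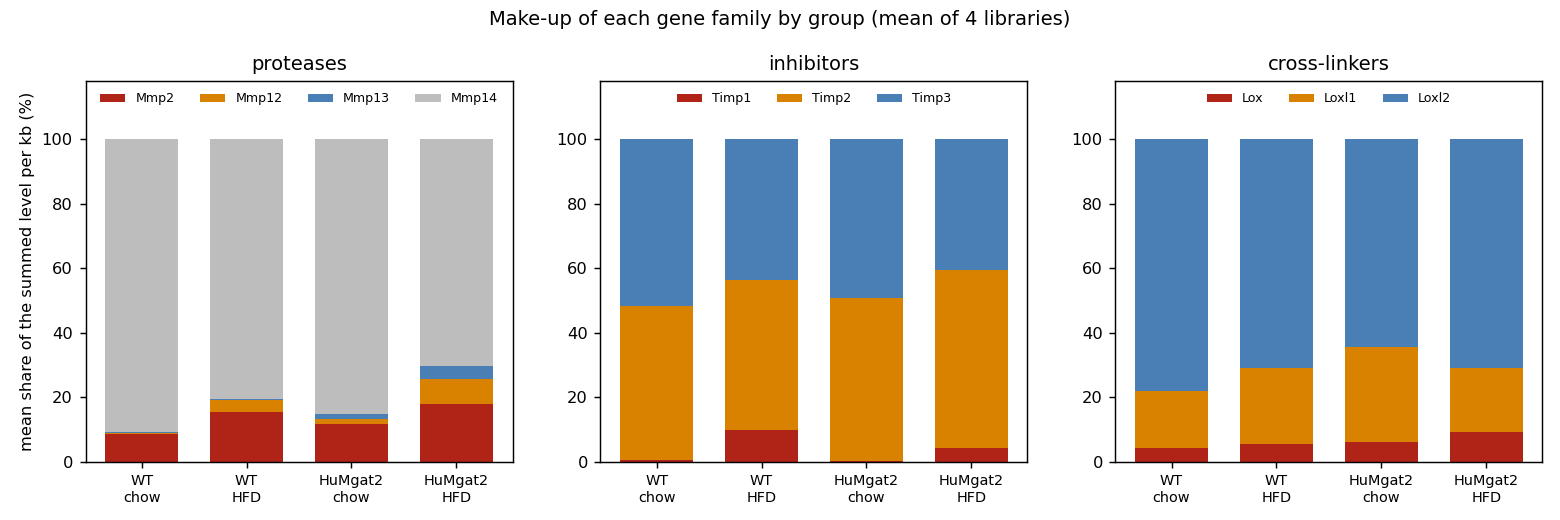
Mean share (y axis, percent) of each gene in the summed level per kilobase of its family in the 4 groups (x axis, n = 4 libraries each). The share of Mmp14 among the 4 proteases is lower on HFD, Timp2 and Timp3 are the bulk of the inhibitors, and Loxl2 is the largest of the 3 cross-linkers.

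Timp1 (ENSMUSG00000001131, chromosome X, 20736405 to 20740974), the inhibitor best known as induced in injured liver, was nearly undetected on chow. Its counts were 1, 0, 0 and 1 in WT chow libraries 5 to 8 and 6, 7, 8 and 17 in WT HFD libraries 1 to 4. In HuMgat2 they were 0, 0, 1 and 0 in chow libraries 13 to 16 and 7, 13, 6 and 2 in HFD libraries 9 to 12. In both genotypes every HFD library had more than every chow library, and the HFD libraries of the genotypes overlapped. The summed counts were 38 against 2 in WT, a ratio of 19.8 (5.11 to 169, exact permutation p = 0.0286). It was 12.9 without WT HFD library 4, and 29.7 and 30.1 without WT chow library 5 or 8, which hold 1 chow count each. They were 28 against 1 in HuMgat2, a ratio of 24.6 (4.07 to 1007, exact permutation p = 0.0286). The single chow count is in library 15, and without that library the chow sum is 0 and no ratio can be given. The unfiltered edgeR fit called both (log2 4.11 ± 0.86 SE, adjusted p = 0.00276, in WT and log2 4.09 ± 1.01 SE, adjusted p = 0.0106, in HuMgat2). Between the genotypes on HFD the ratio of HuMgat2 to WT was 0.647 (0.383 to 1.08, exact permutation p = 0.457), and 0.991 without WT HFD library 4.

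Timp2 (ENSMUSG00000017466, chromosome 11, 118191895 to 118246332), which both inhibits MMP2 and helps MMP14 to activate it, was higher in the HuMgat2 HFD group. It stood at 10.9, 7.49, 9.60 and 10.3 CPM in WT chow libraries 5 to 8 and at 9.81, 12.9, 10.9 and 11.5 CPM in WT HFD libraries 1 to 4. It stood at 11.8, 11.9, 9.23 and 12.9 CPM in HuMgat2 chow libraries 13 to 16 and at 17.0, 19.1, 15.5 and 13.9 CPM in HuMgat2 HFD libraries 9 to 12. The HuMgat2 HFD libraries lay above the other 12, which overlapped. It rose 1.43-fold with HFD in HuMgat2 (log2 0.52 ± 0.14 SE, adjusted p = 0.0189) and was 1.45-fold higher there than in WT on HFD (log2 0.54 ± 0.14 SE, adjusted p = 0.0162). The first call was lost without HuMgat2 chow library 15 (adjusted p = 0.0654) or HFD library 10 (adjusted p = 0.0744), and the second without HFD library 10 (adjusted p = 0.0596). In WT the change was not called (log2 0.24 ± 0.14 SE, adjusted p = 0.276), nor was the difference between the diet effects (log2 0.28 ± 0.20 SE, adjusted p = 0.487).

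Timp3 (ENSMUSG00000020044, chromosome 10, 86136236 to 86185370), an inhibitor held in the matrix that also blocks ADAM proteases, was not called in any comparison. Its mean was 21.9 ± 2.84 CPM (SD, n = 4) in WT on chow, 22.6 ± 5.81 in WT on HFD, 23.9 ± 4.94 in HuMgat2 on chow and 25.5 ± 3.86 in HuMgat2 on HFD. WT HFD library 4 was the lowest of the 16, at 14.2 CPM. Its log2 differences ranged from 0.05 ± 0.18 SE with HFD in WT to 0.16 ± 0.18 SE between the genotypes on HFD, with adjusted p from 0.580 to 0.885 in the 4 comparisons. The exons of Timp3 share 21.9% of their bases with Syn3 on the other strand. Reads were counted with no strand setting, so reads there cannot be assigned to either gene. The length used for Timp3 includes these bases, so its level per length may be too low. This also touches the inhibitor shares, sums and ratios below.

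Per length, Timp2 and Timp3 were close: Timp2 made up 47.9%, 46.5%, 50.6% and 55.3% of the summed inhibitor level and Timp3 51.6%, 43.7%, 49.1% and 40.5% in WT on chow, WT on HFD, HuMgat2 on chow and HuMgat2 on HFD. Timp1 took 0.456% and 9.84% ± 9.25 (SD, n = 4) in WT and 0.284% and 4.14% ± 2.46 in HuMgat2 on chow and HFD. Its share was 23.7% in WT HFD library 4, and without that library the WT HFD mean was 5.22% ± 0.618 (SD, n = 3). The log2 ratio of summed inhibitor to summed protease level per length was 0.10 ± 0.21 (SD, n = 4) in WT on chow, 0.44 ± 0.65 in WT on HFD, 0.54 ± 0.19 in HuMgat2 on chow and 0.13 ± 0.14 in HuMgat2 on HFD. The HuMgat2 chow libraries, at 0.37 to 0.77, lay above the HuMgat2 HFD libraries, at -0.04 to 0.30, and above the WT chow libraries, at -0.13 to 0.29. WT HFD library 4 was the lowest of the 16, at -0.51, and without it that group's mean was 0.76. With Mmp14 left out of the sum, the log2 ratio was 3.55 ± 0.25 and 2.83 ± 0.43 in WT on chow and HFD, and 3.35 ± 0.25 and 1.90 ± 0.07 in HuMgat2. The 4 HuMgat2 HFD libraries, at 1.82 to 1.99, lay below the other 12, of which the lowest was 2.33. The log2 ratio of Timp2 to Mmp2 was 2.59 ± 0.21 and 2.10 ± 0.28 in WT on chow and HFD, and 2.70 ± 0.20 and 1.76 ± 0.10 in HuMgat2. Timp1 alone was 0.550% and 10.8% of the summed protease level in WT and 0.371% and 4.67% in HuMgat2 on chow and HFD. These ratios are descriptions over chosen genes and were not tested.

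**Figure D4:**
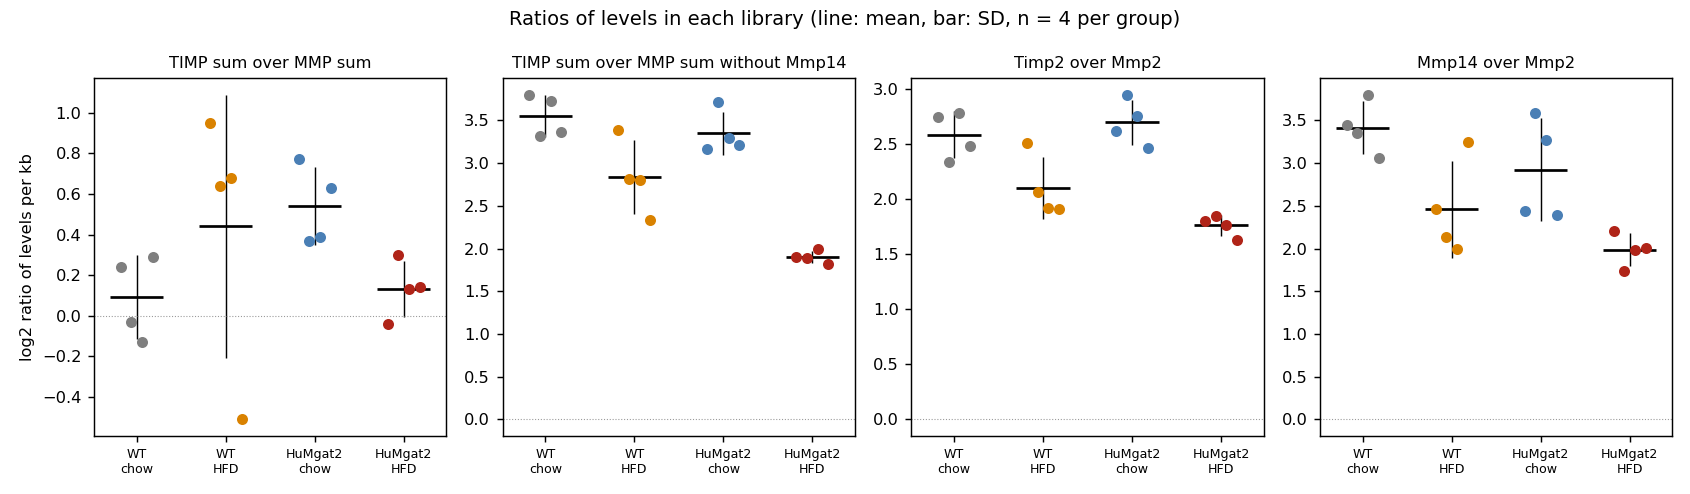
Log2 ratios of levels per kilobase (y axis) in each of the 16 libraries by group (x axis), with the mean as a line and the SD as a bar (n = 4 per group). For inhibitors over all 4 proteases the HuMgat2 chow libraries, at 0.37 to 0.77, lie above those of HuMgat2 on HFD and of WT on chow, and WT HFD spans the other groups. With Mmp14 left out the HuMgat2 HFD libraries sit at 1.82 to 1.99, below the other 12.

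Loxl2 (ENSMUSG00000034205, chromosome 14, 69846517 to 69933283), a cross-linker of collagen IV and of fibrillar collagen, was the 1 gene of the 8 whose diet effect differed between the genotypes. Its level was 6.89, 6.33, 5.62 and 6.52 CPM in WT chow libraries 5 to 8 and 6.39, 9.50, 7.41 and 9.84 CPM in WT HFD libraries 1 to 4. It was 4.32, 3.75, 3.59 and 2.71 CPM in HuMgat2 chow libraries 13 to 16 and 7.97, 9.90, 9.77 and 11.1 CPM in HuMgat2 HFD libraries 9 to 12. The HuMgat2 chow libraries were the lowest of the 16, and the HFD libraries of both genotypes overlapped. Loxl2 rose 2.70-fold with HFD in HuMgat2 (log2 1.43 ± 0.17 SE, adjusted p = 3.51e-05), and the change in WT was not called (log2 0.38 ± 0.16 SE, adjusted p = 0.122). The difference between the effects was log2 1.05 ± 0.23 SE (adjusted p = 0.0144), and it was called under all 23 alternatives run, at adjusted p from 0.000533 to 0.0355. On chow the HuMgat2 level of Loxl2 was below that of WT by 1.77-fold (log2 -0.82 ± 0.17 SE, adjusted p = 0.0333), while on HFD no difference was called (log2 0.23 ± 0.16 SE, adjusted p = 0.343). The call on chow was lost under 9 alternatives at log2 -0.85 to -0.71, among them leaving out any 1 of WT chow libraries 5, 6 and 8, HuMgat2 chow libraries 14, 15 and 16 or HuMgat2 HFD libraries 10 and 11 (adjusted p 0.0529 to 0.121). Of the exon bases of Loxl2, 5.57% are shared with Gm27177 on the other strand.

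Lox (ENSMUSG00000024529, chromosome 18, 52649139 to 52662939), the founding member of the cross-linker family, was scarce. Its counts were 11, 7, 5 and 4 in WT chow libraries 5 to 8 and 7, 5, 9 and 20 in WT HFD libraries 1 to 4. In HuMgat2 they were 2, 8, 5 and 10 in chow libraries 13 to 16 and 25, 28, 27 and 24 in HFD libraries 9 to 12. As levels the HuMgat2 HFD libraries, at 1.02 to 1.24 CPM, lay above all others but WT HFD library 4, which was the highest at 1.59 CPM. Lox rose 3.66-fold with HFD in HuMgat2 (log2 1.87 ± 0.50 SE, adjusted p = 0.0186), a call lost without HuMgat2 chow library 13 (adjusted p = 0.0550). Lox passed the filter on low counts only through the HuMgat2 HFD group, where it is high, so its calls against that group add no support. In WT it was not called (log2 0.79 ± 0.54 SE, adjusted p = 0.356), and without library 4 the WT value turned to -0.06. On HFD the difference between the genotypes was log2 1.01 ± 0.47 SE (adjusted p = 0.154), and without library 4 it was called (log2 1.86, adjusted p = 0.00199). The test of a difference between the diet effects gave log2 1.08 ± 0.75 SE with all libraries (adjusted p = 0.476) and was called without library 4 (log2 1.93, adjusted p = 0.0385). Voom with quality weights, on all 16 libraries, called both the genotype difference on HFD (log2 1.72, adjusted p = 0.000755) and the difference between the diet effects (log2 1.95, adjusted p = 0.0331).

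Loxl1 (ENSMUSG00000032334, chromosome 9, 58195021 to 58220469), which acts on elastic fibers, was not called in any comparison. Its mean was 0.909 ± 0.424 CPM (SD, n = 4) and 1.70 ± 0.530 CPM in WT on chow and HFD, and 1.02 ± 0.421 and 1.63 ± 0.286 CPM in HuMgat2. The HFD and chow libraries overlapped in both genotypes (log2 0.88 ± 0.35 SE, adjusted p = 0.102, in WT and log2 0.64 ± 0.35 SE, adjusted p = 0.248, in HuMgat2). Per length, Loxl2 made up 78.0%, 71.0%, 64.5% and 70.9% of the summed cross-linker level, Loxl1 17.7%, 23.4%, 29.4% and 19.7% and Lox 4.24%, 5.59%, 6.09% and 9.32% in WT on chow, WT on HFD, HuMgat2 on chow and HuMgat2 on HFD. The Lox share was 12.1% in WT HFD library 4, and without it the WT HFD mean was 3.44% ± 1.47 (SD, n = 3), below that of WT on chow.

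Markers of cell types that express such genes moved with several of these results. In bulk liver, more cells of a type and more RNA per cell cannot be told apart. Over all tested genes, 8.37% were called higher and 6.74% lower with HFD in WT, and 7.56% and 6.40% in HuMgat2. Leaving out WT HFD library 4 moved the number of all genes called higher in HuMgat2 from 1310 to 1881. Of 10 stellate cell markers 0 were called higher with HFD in WT and 6 in HuMgat2, and of 5 tested myofibroblast markers 1 and 3. The 10 stellate markers summed to 309 to 426 CPM on chow and 367 to 516 CPM on HFD in WT. In HuMgat2 they summed to 291 to 480 CPM on chow and 532 to 602 CPM on HFD, the group with the highest mean of Mmp2, Timp2 and Lox. The 6 listed myofibroblast markers summed to 14.0 to 18.0 CPM on chow and 20.5 to 48.5 CPM on HFD in WT, and to 16.1 to 27.3 and 49.6 to 68.0 CPM in HuMgat2. Much of these sums on HFD was Col1a1 (means 22.0 and 30.9 CPM), the 1 marker called in WT, which is also among the collagen genes below. Acta2, which marks myofibroblasts, was not called with HFD in either genotype. In HuMgat2 it was 1.74 to 4.25 CPM on chow and 2.48 to 3.09 CPM on HFD. Of 9 Kupffer cell and macrophage markers 4 were called higher with HFD in WT and 0 in HuMgat2, and without WT HFD library 4 these were 2 and 1. Their sum was 147 to 249 CPM on chow and 238 to 987 CPM on HFD in WT, and 173 to 230 and 224 to 284 CPM in HuMgat2. Of 5 markers of lipid-associated macrophages, a class described in fatty liver, 3 were called higher in WT and 2 in HuMgat2, among them Gpnmb in both (log2 5.52, adjusted p = 0.00310, and log2 4.40, adjusted p = 0.00765). Without WT HFD library 4, 2 of the 5 were called higher and 1 lower in WT and 3 higher in HuMgat2. These small counts give no order of the genotypes. On HFD 4 were then called higher and 1 lower in HuMgat2 than in WT, where 1303 and 1198 of all genes were called. With all libraries Fabp5 was the only one of the 5 called there, lower in HuMgat2 (log2 -2.73, adjusted p = 0.00399). The WT value of Gpnmb without WT HFD library 4 was log2 3.43 (adjusted p = 0.000436). None of the markers in these 5 lists had 0 counts over a whole group. Their part in the results above was not tested. The 6 hepatocyte markers, which define the labelled tissue, summed to 56627 to 68511 CPM on chow and 17104 to 49682 CPM on HFD in WT, without overlap, and to 45627 to 71065 and 43687 to 55259 CPM in HuMgat2. Of the 6, 1 was called lower with HFD in WT, Hnf4a, and 2 in HuMgat2, Hnf4a and Cps1. Of 7 endothelial markers 1 was called higher in WT and 2 in HuMgat2, with Lyve1 in both (3.48-fold and 3.84-fold). Of 5 tested lymphocyte markers 2 were called higher in WT, Cd4 and Nkg7, and 1 without WT HFD library 4, and 0 in HuMgat2. Of 4 adipocyte markers only Cfd was tested. It had 83.1, 130, 78.8 and 0.159 CPM in WT HFD libraries 1 to 4 against 0.136 to 0.416 CPM on chow, and 3.01 to 6.96 CPM on HFD against 0 to 0.234 CPM on chow in HuMgat2. It was called higher in both genotypes (adjusted p = 0.000243 and 0.0116), and Adipoq, which defines adipocytes, had 0 counts in all 8 WT libraries and at most 1 in each HuMgat2 library. The part of these markers was not tested either.

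Other genes of matrix remodelling were described from 8 lists, by the number called with HFD in each genotype. Over all tested genes, 8.37% were called higher and 6.74% lower in WT, and 7.56% and 6.40% in HuMgat2. Lists with few calls, such as collagen processing in WT, lie near these shares and are not read as results about the list. Of 17 collagen and elastic fiber genes, the substrates of these enzymes, 12 rose in WT and 13 in HuMgat2 and 0 fell, with medians of log2 0.75 and 0.89, and without WT HFD library 4 the WT count was 10. The fibrillar collagen gene Col1a1 rose from 3.77 ± 0.475 to 22.0 ± 11.7 CPM in WT and from 6.24 ± 2.57 to 30.9 ± 5.69 CPM in HuMgat2 (adjusted p = 0.000406 and 0.000419). Of 22 genes of collagen processing and cross-linking 2 rose and 1 fell in WT and 3 rose in HuMgat2, with medians of log2 0.30 and 0.21. When WT HFD library 4 was left out, the HuMgat2 counts were 6 higher and 2 lower. The collagen chaperone gene Serpinh1 rose 1.53-fold and 1.70-fold and the procollagen C-proteinase enhancer gene Pcolce 1.49-fold and 1.71-fold in WT and HuMgat2. The call of Serpinh1 in WT was lost without WT HFD library 4 (adjusted p = 0.0639). P4ha2, a prolyl hydroxylase subunit, fell 1.84-fold in WT, and Loxl3, another lysyl oxidase relative, rose 1.83-fold in HuMgat2.

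Of 17 ADAM and ADAMTS genes 3 rose in WT and 7 in HuMgat2, with medians of log2 0.65 and 0.63, and Adamts2, which removes the N-propeptide of procollagen, rose in both, 2.38-fold and 2.07-fold (adjusted p = 0.000865 and 0.00193). Of 12 other matrix-degrading proteases 1 rose in WT and 5 in HuMgat2 (medians log2 0.54 and 0.64), among them Plau, the urokinase gene, 2.92-fold (adjusted p = 0.00530) and Htra3 2.51-fold (adjusted p = 0.00309). Plat and Plaur, also among the 5, averaged 1.10 and 1.12 CPM in HuMgat2 on HFD against 0.314 and 0.323 CPM on chow. They may have passed the filter on low counts mainly through HuMgat2 HFD, so they add little support to this count. The gene called in WT was Prtn3, a neutrophil and myeloid protease, at 1.37, 1.13, 0.486 and 42.6 CPM in HFD libraries 1 to 4 against 0.0829 ± 0.0588 CPM (SD, n = 4) on chow (log2 6.97, adjusted p = 0.0104). Without library 4 its HFD mean was 0.992 ± 0.455 CPM and the change log2 3.49 (adjusted p = 0.00135). Prtn3 passed the filter on low counts only through WT HFD, where it is high, so its calls there add no support. The Prtn3 values stood beside a summed level of the neutrophil markers of 1.66 to 33.8 CPM on HFD and 1.48 to 2.26 CPM on chow, whose part was not tested. Of the other matrix metalloproteinases 6 of 19 were tested (medians log2 0.04 and 0.21), and Mmp27, singled out after its values were seen, rose in WT at 0.883 ± 0.563 against 0.154 ± 0.0746 CPM (adjusted p = 0.0146). The other inhibitors had 6 tested genes, with medians of log2 0.03 and -0.48, and 1 was called in each genotype (3 in HuMgat2 when WT HFD library 4 was left out). Serpine2, a serine protease inhibitor, fell from 14.9 ± 3.34 to 3.52 ± 0.972 CPM in WT (adjusted p = 0.000153) and from 22.8 ± 5.55 to 3.76 ± 1.32 CPM in HuMgat2 (adjusted p = 1.16e-05). Of 8 genes of MMP activation and clearance 2 rose in WT, or 1 when WT HFD library 4 was left out, and 3 in HuMgat2 (medians log2 0.35 and 0.33). Pcsk6, a proprotein convertase, rose 1.43-fold in HuMgat2 (adjusted p = 0.00884), and Thbs2, a clearance factor of MMP2, 2.33-fold (adjusted p = 0.000156). Of 16 inducers of matrix remodelling 3 rose and 1 fell in WT and 1 rose and 3 fell in HuMgat2 (medians log2 0.13 and 0.32), and 3 rose in HuMgat2 when WT HFD library 4 was left out. The AP-1 subunit gene Fos fell in HuMgat2 from 14.6 ± 14.6 to 1.77 ± 0.209 CPM (adjusted p = 0.0156), with overlapping libraries, and the TGF-beta signal transducer gene Smad3 fell 2.06-fold in WT and 1.41-fold in HuMgat2 (adjusted p = 9.28e-05 and 0.0145).

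**Figure D5:**
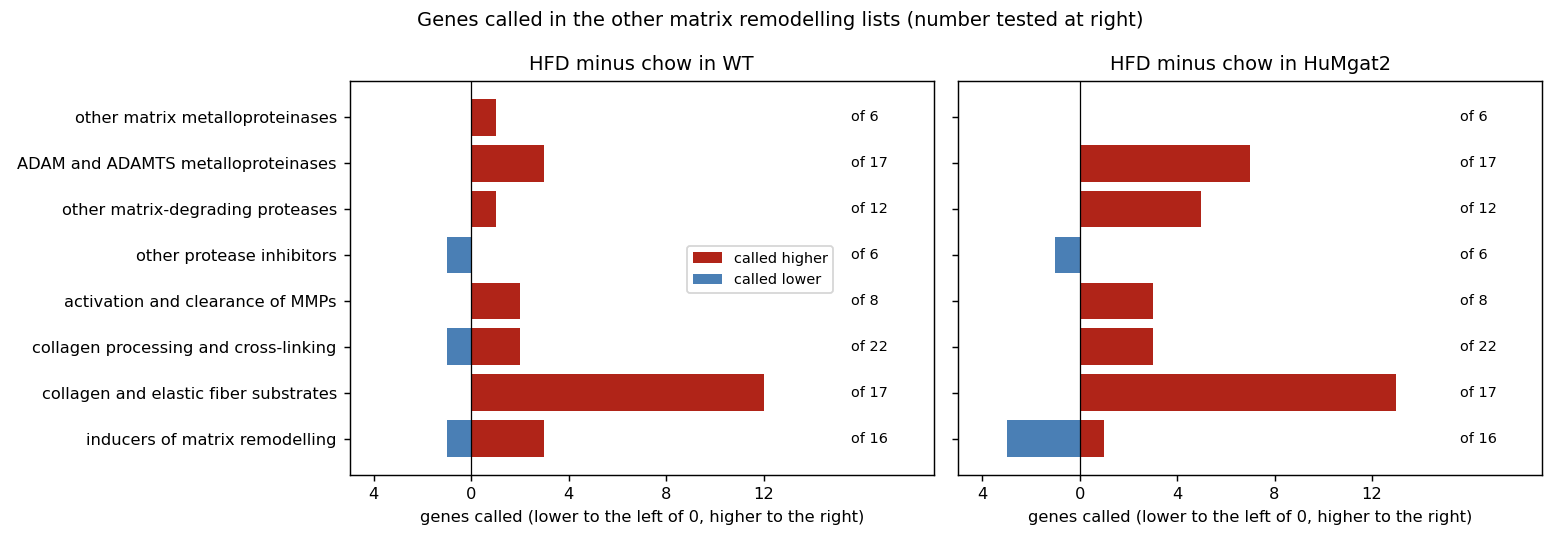
Number of genes called higher (right of 0) and lower (left of 0) with HFD in WT and in HuMgat2 (x axis) in the 8 lists of other matrix remodelling genes (y axis), with the number tested at the right. The collagen and elastic fiber genes have the most calls, 12 of 17 in WT and 13 of 17 in HuMgat2. Of all tested genes, 8.37% were called higher in WT and 7.56% in HuMgat2.

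The genes most alike to each member were taken by Pearson's r of the log2 of CPM plus 0.5 over the 16 libraries, among 14118 genes with a mean of at least 1 CPM. The added 0.5 is above most chow values of Mmp12 and Lox, so it flattens their low levels. The libraries share diet and genotype groups, so these values are descriptions. Mmp12 was most alike to the basement membrane collagen gene Col4a1 (r = 0.98) and to Tnc, tenascin C (r = 0.97). Mmp2 was most alike to Tpm1 (r = 0.94) and to Sparc, a collagen-binding matrix protein gene (r = 0.93). Timp2 was closest to Calm3 and the collagen gene Col6a1 (r = 0.88 for both), and Lox to Psap (r = 0.93) and Inpp5b (r = 0.92). Loxl2 was closest to Uap1l1 (r = 0.91) and Ebpl (r = 0.89), and Loxl1 to Fbxw4 (r = 0.91) and Zbed5 (r = 0.90). The nearest genes of Mmp14, Gas2l1 and Grk6 (r = 0.92 and 0.89), and of Timp3, Eny2 and Coq9 (r = 0.84 for both), dropped to 0.88, 0.83, 0.72 and 0.70 without WT HFD library 4.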

How the data were processed

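The authors deposited raw counts per gene name, made per the file headers with featureCounts 2.0.1 (-B, -p, no strand setting) on Ensembl 103, GRCm39. STAR 2.7 and DESeq2 1.26.0 are named in the submitters' processing notes. Per the labels, total RNA of 15 mg of liver (integrity number above 7) was depleted of ribosomal RNA and made into stranded libraries. The 64 records are 4 per library, and each of the 16 libraries was used once. Gene length, also in the deposited table, is the union of exons.

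The 4 groups were fitted together with edgeR 4.0.16 in R 4.3.3 (quasi-likelihood test, TMM, filterByExpr, Benjamini-Hochberg over 17318 genes, 33954 having a count, two-sided). The script was tested on simulated data. Exact tests used scipy 1.17.1. Alternatives, given in the closing section, were DESeq2 1.42.0, its size factors, upper-quartile factors, no filter on low counts, a minimum mean of 1 CPM, a fit of just the 2 groups of a comparison, removal of hemoglobin, mitochondrial and ribosomal RNA genes, limma 3.58.1 voom with quality weights, and each library left out. Genes named are the 10, up to 3 called per list and diet comparison by size with a mean of at least 1 CPM, and 2 most alike per gene. Genes and lists were chosen with earlier results of these data known. Intervals cover counting error only.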

Additional observations from a re-analysis of the deposited data

Results flagged for a closer look

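In 40 groups of 4 libraries examined, 6 had 1 library far from the other 3, by Dixon's test at its 95% critical value, which chance passes in about 1 of 20 groups of normally distributed values. Groups with counts near 0 depart from this rate. A single count beside 0s, as for Timp1 in HuMgat2 on chow, always passes. In WT on HFD, Timp1 was 1.35 CPM in library 4 against 0.292 to 0.324 CPM in the other 3, and Lox was 1.59 CPM in the same library against 0.208 to 0.364 CPM. Mmp2 was 1.56 CPM in WT HFD library 1, below the others at 2.63 to 2.79 CPM. Mmp14 was 36.2 CPM in HuMgat2 HFD library 9 against 28.5 to 29.0 CPM. In HuMgat2 on chow, Timp3 was 31.3 CPM in library 14 against 20.9 to 22.0 CPM, and Timp1 was 0.0536 CPM in library 15, a single count, against 0 in the others. The diet effect of Loxl2 differed between the genotypes by log2 1.05 (edgeR interaction test, adjusted p = 0.0144).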

How the results depend on the processing

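For the 40 log2 values of the 8 tested genes in 5 comparisons, 944 alternative values were computed under 8 other settings and with each of 16 libraries left out. Of these, 884 kept direction and call, 19 lost a call, 14 gained one and 27 changed sign, all 27 in values that were not called. The number of genes called higher with HFD in WT was 1 with only the 2 groups compared and 1 to 2 with a library left out, and the number called lower was 1 under voom and 0 to 1 with a library left out. Between the genotypes on HFD, 5 were called higher under voom and 2 to 6 with a library left out. With a library left out these counts include Mmp13, which passed the filter in 13 of the 16 such fits through the HuMgat2 HFD group, where it is high, so its calls there add no support. On chow, DESeq2 called 1 higher and leaving out a library 0 to 1, while 0 were lower with only the 2 groups compared and 0 to 1 with a library left out. For the interaction voom called 3 higher, and 1 to 3 were called with a library left out. Over all genes the numbers moved as well. Between the genotypes on HFD, 1249 were called higher in the main fit, 2176 under voom and 829 to 1352 with a library left out. In the interaction these numbers were 452, 754 and 284 to 600. With HFD in WT, 1449 were called higher in the main fit and 655 with only the 2 groups compared. Under voom 1902 were lower there, against 1168. On chow, 46 were called higher between the genotypes in the main fit and 133 by DESeq2. Sign changes under voom were Lox with HFD in WT (-0.03), Loxl1 between the genotypes on HFD (0.10) and on chow (-0.00), and in the interaction Timp3 (-0.07) and Loxl1 (0.10). The other sign changes came with a library left out, where the values spanned, with HFD in WT, -0.56 to 0.07 for Mmp14, -0.05 to 0.21 for Timp3 and -0.06 to 1.13 for Lox, and with HFD in HuMgat2 -0.02 to 0.25 for Timp3. They spanned -0.19 to 0.15 for Loxl1 between the genotypes on HFD, and on chow -0.03 to 0.20 for Timp3, -0.37 to 0.26 for Lox and -0.12 to 0.46 for Loxl1. In the interaction they spanned -0.13 to 0.20 for Timp3 and -0.50 to 0.07 for Loxl1. Lox gave no value with a mean of at least 1 CPM, and Lox and Mmp12 did not pass the filter in some fits of 2 groups. The cause was not tested. No paired analysis was possible because the library numbers are not shared between groups. Depth limits Mmp13, Timp1 and Lox, with at most 28 counts in a library.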
